A study of Mus musculus with 20 samples.

Results

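Lymphoid priming was followed through 9 genes, Flt3, Cd27, Notch1, Il12a, Dntt, Satb1, Ikzf1, Mef2c and Tcf3, out of 38561 Ensembl mouse genes in the files. They were chosen by name, as genes known from early lymphoid development, and every symbol matched 1 identifier. The data are read counts from 20 single bone marrow cells of C57BL/6J mice, made with Quartz-Seq, which copies the polyadenylated RNA of a cell and amplifies it by PCR. By the labels, 11 cells were sorted as Lin-cKit+CD150- (CD150- cells) and 9 as Lin-cKit+CD150+CD48- (CD150+CD48- cells), and no treatment or altered allele is named for either group. Blood stem cells are commonly enriched by the surface protein CD150, the product of Slamf1, and by the lack of CD48. The CD150- gate names no CD48 selection. Cells are called by the codes in their titles, with letters A and B in the CD150+CD48- group and C and D in the CD150- group. The meaning of the letters is not stated in the labels, so the letter and the gate cannot be told apart. Within the CD150- group, D3, D9, D11 and D12 were each set against the other 7 cells, because earlier results on other genes had singled them out. They are no labelled group and are not averaged.

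Lymphoid priming is the state in which a multipotent blood progenitor begins to transcribe genes of the lymphoid line while it can still form other blood cells. In mouse bone marrow it is known for a rise of the receptor FLT3 on progenitors that lose stem cell function, followed by recombination enzymes and the interleukin-7 receptor as cells commit. Transcription factors such as Ikaros and the E proteins are needed for this step, and they also act in other blood lineages.

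No animal or culture is named, so each gate counted as 1 sample. Differences therefore have no replicate error, no test was made, and intervals are exact 95% intervals for counting error only, of PCR copies that are not independent molecules. A CD150+CD48- cell had 660007 to 3722713 gene reads, and a CD150- cell 996440 to 5776125. Single cells are given as CPM, read counts scaled by that cell's total of gene reads. Group levels and numbers of genes read come from cells thinned to an equal depth of 660007 gene reads. Of the gate genes, Slamf1 had reads in 3 of 9 CD150+CD48- cells (A8, B11 and B12) and in no CD150- cell. Kit had reads in all 20 cells. Cd48 had reads in 1 cell, B3, at 230 CPM, although that cell was sorted as CD48-negative. More than 40% of the reads of A10, A11 and B4 did not align.

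The 9 genes fell into 3 patterns over the cells, a description made after their values were seen. Ikzf1 and Tcf3 had reads in all 11 CD150- cells and in 7 of 9 CD150+CD48- cells each. Flt3, Satb1, Il12a and Cd27 had no read in C6, C9, C10, C12, D4, D5 or D8, the other 7 CD150- cells, and were read in some or all of D3, D9, D11 and D12 and in 3 to 8 CD150+CD48- cells. Mef2c lay between, with reads in all 9 CD150+CD48- cells and in 6 of 11 CD150- cells. Notch1 and Dntt were read in few cells. Among the 11335 genes past the filter (at least 10 thinned reads in all and a read in at least 3 cells), 7.19% had no read in the other 7 CD150- cells, against 4 of the 8 members past it. These 4 passed the filter through reads elsewhere, so the count is a description. The other 7 cells had 996440 (D8) to 5776125 (C10) gene reads, where D8, D5 and D4 were below each of D3, D9, D11 and D12. A count of 0 allows up to 3 reads, which is 0.519 to 3.01 CPM in these 7 cells.

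**Figure D1:**
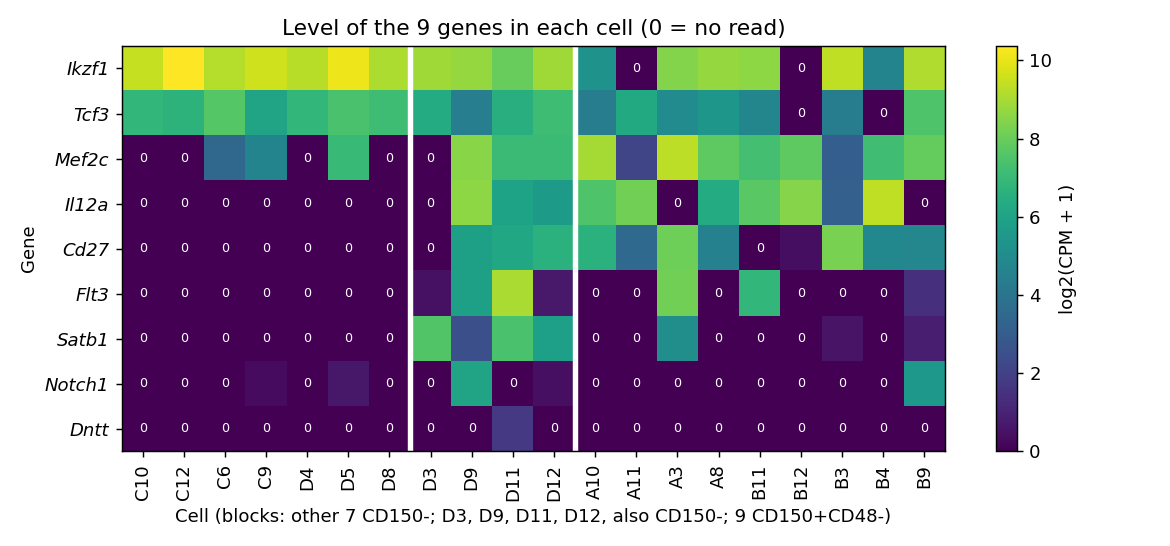
Level of the 9 genes (rows) in each of the 20 cells (columns), as log2(CPM + 1) on the colour scale, with cells without a read marked 0. White lines part the other 7 CD150- cells, D3, D9, D11 and D12, and the 9 CD150+CD48- cells. The Il12a, Cd27, Flt3 and Satb1 rows are at 0 in the 7 cells on the left, and the Ikzf1 row has reads in all 11 CD150- cells.

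The 250 bases upstream of the RefSeq start of the 4 genes with no read in those 7 cells are printed below to show what sequence stands there (mouse build GRCm38.p6, 5′ to 3′ on the gene's strand, from RefSeq). Satb1 has 5 annotated starts and Il12a 2, of which the outermost is shown. Flt3 lies at chr5:147400490-147400739 on the minus strand, Satb1 at chr17:51833291-51833540 on the minus strand, Il12a at chr3:68690394-68690643 on the plus strand and Cd27 at chr6:125237028-125237277 on the minus strand. Capitals mark a match, on either strand, to any of 5 short motifs. CAGCTG is an E-box bound by E proteins such as those of Tcf3. TGGGAA is the core shared by Ikaros and the Notch partner RBPJ. RUNX factors bind TGTGGT, the factor PU.1 binds GAGGAA, and factors of the Gata family bind AGATAA.
Flt3: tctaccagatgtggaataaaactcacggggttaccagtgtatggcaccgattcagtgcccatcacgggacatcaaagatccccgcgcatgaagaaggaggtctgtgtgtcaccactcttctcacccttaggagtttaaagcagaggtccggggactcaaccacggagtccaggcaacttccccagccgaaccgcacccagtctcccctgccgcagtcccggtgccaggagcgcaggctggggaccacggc
Satb1: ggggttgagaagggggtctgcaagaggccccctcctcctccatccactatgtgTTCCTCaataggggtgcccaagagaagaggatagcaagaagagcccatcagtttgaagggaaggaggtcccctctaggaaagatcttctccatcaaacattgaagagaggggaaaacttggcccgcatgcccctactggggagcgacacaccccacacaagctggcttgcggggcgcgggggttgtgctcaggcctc
Il12a: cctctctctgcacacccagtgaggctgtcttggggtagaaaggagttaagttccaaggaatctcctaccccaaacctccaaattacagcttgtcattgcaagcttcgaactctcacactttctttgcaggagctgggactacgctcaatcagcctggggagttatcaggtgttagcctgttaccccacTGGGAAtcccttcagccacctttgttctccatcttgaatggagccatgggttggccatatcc
Cd27: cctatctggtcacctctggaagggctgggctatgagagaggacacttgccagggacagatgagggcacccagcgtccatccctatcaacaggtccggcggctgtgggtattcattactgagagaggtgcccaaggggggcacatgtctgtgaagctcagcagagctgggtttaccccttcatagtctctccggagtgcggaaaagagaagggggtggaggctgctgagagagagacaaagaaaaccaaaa
The Flt3 and Cd27 windows held none of the 5 motifs. Of these outermost windows, that of Il12a held TGGGAA 62 bases before the start, and that of Satb1 held GAGGAA, as its reverse complement, 197 bases before it. Windows of the other starts held further matches, those of Satb1 to the E-box, the Ikaros core and the PU.1 motif and that of Il12a to the RUNX motif. Over all 32536 mouse promoter windows of this length, 13.1% held CAGCTG, 21.6% TGGGAA, 14.0% TGTGGT, 23.4% GAGGAA and 9.97% AGATAA. A match is a stretch of letters and was not tested as a binding site.

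Flt3 encodes the receptor tyrosine kinase for FLT3 ligand and spans 5:147330741-147400489 on the minus strand of GRCm38. D11 had 536 CPM (1377 reads), the highest of the 20 cells, and D9 had 59.0 CPM (198 reads). In D12 and D3 there were 2 reads and 1 read. Among CD150+CD48- cells A3 had 285 CPM, B11 115 and B9 1.61, and the other 6 had no read. The 4 highest cells, D11, A3, B11 and D9, had intervals that did not overlap one another. High Flt3 thus occurred on both sides of the gate, in few cells of each. The group levels were 44.1 CPM in CD150+CD48- cells and 53.4 CPM in CD150- cells, a ratio of 0.825 (95% CI 0.703 to 0.968). This direction rested on D11: the log2 fold of CD150+CD48- over CD150- was -0.27 with all cells, 2.59 without D11 and -1.79 without A3. Among cells of letters B and D it was -1.79 and among A and C 6.14. It also turned when levels were scaled to ERCC spike-in reads (0.22) and when log2 values were averaged over cells (0.44).

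Cd27 encodes a surface receptor of the TNF receptor family, found on lymphocytes and on multipotent progenitors, and lies at 6:125232622-125237010 on the minus strand. In CD150+CD48- cells its level ran from 0 to 315 CPM with a median of 26.6 CPM, and reads were found in 8 of 9 cells. B3 (315 CPM) and A3 (268 CPM) stood above the rest, B12 had 1 read and B11 none. D12 had 96.4 CPM, D11 72.7 CPM and D9 57.8 CPM, and D3 had no read. D12 and A10 (98.5 CPM) had overlapping intervals, as had D11 and D9. These 3 CD150- cells were thus within the range of the CD150+CD48- cells and above their median, while D3 was at 0 with the other 7. At equal depth the group level was 86.5 CPM in CD150+CD48- cells and 20.9 CPM in CD150- cells, 4.13-fold higher (95% CI 3.44 to 4.99). The log2 fold was 2.00, with 2.64 without D12, 1.54 without A3 and 1.42 without B3. Of the gene's exon bases, 5.54% overlap a microRNA gene, Mir8113, so reads there cannot be assigned with certainty.

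Il12a encodes the alpha subunit of the cytokine interleukin-12, which in immune cells pairs with the product of Il12b. It lies at 3:68690644-68698547 on the plus strand. Reads were found in 7 of 9 CD150+CD48- cells, with a median of 180 CPM over the 9 and a highest level of 657 CPM in B4. B12 had 359 CPM, A11 288, B11 207, A10 180, A8 82.3 and B3 7.98, and A3 and B9 had none. D9 had 392 CPM, whose interval overlapped that of B12. D11 had 64.2 CPM and D12 49.4 CPM, with intervals that overlapped each other, and D3 had no read. Il12a was therefore read in 10 cells and not in the other 10. The group level was 199 CPM against 45.2 CPM, 4.41-fold higher in CD150+CD48- cells (95% CI 3.90 to 5.00). D9 carried most of the CD150- level, and without it the log2 fold was 4.09 in place of 2.12. B4, among the cells with the most unaligned reads, was the highest cell, and the log2 fold was 1.63 without it and 1.30 without A10, A11 and B4. Il12b had no read in any cell.

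Satb1 encodes a chromatin organiser active in early lymphoid progenitors and thymocytes, at 17:51736187-51833290 on the minus strand. D3 had 188 CPM (471 reads), the highest of the 20 cells, and D11 had 166 CPM, with overlapping intervals. D12 had 56.5 CPM and D9 4.77 CPM. Satb1 was the only member with at least 10 reads in each of D3, D9, D11 and D12 besides Ikzf1 and Tcf3. Among CD150+CD48- cells A3 had 33.8 CPM, B9 3 reads and B3 1 read, and the other 6 had none. The group level was 3.37 CPM in CD150+CD48- cells and 36.8 CPM in CD150- cells, 10.9-fold lower (95% CI 6.93 to 18.2). The log2 fold was -3.11, with -4.99 without A3, -2.37 without D3 and -2.50 without D11. Among cells of letters A and C it was 3.04, where A3 has reads and no cell of letter C has any, and among cells of letters B and D it was -5.50. Of its exon bases, 1.49% are shared with Gm36931 and Gm6934.

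**Figure D2:**
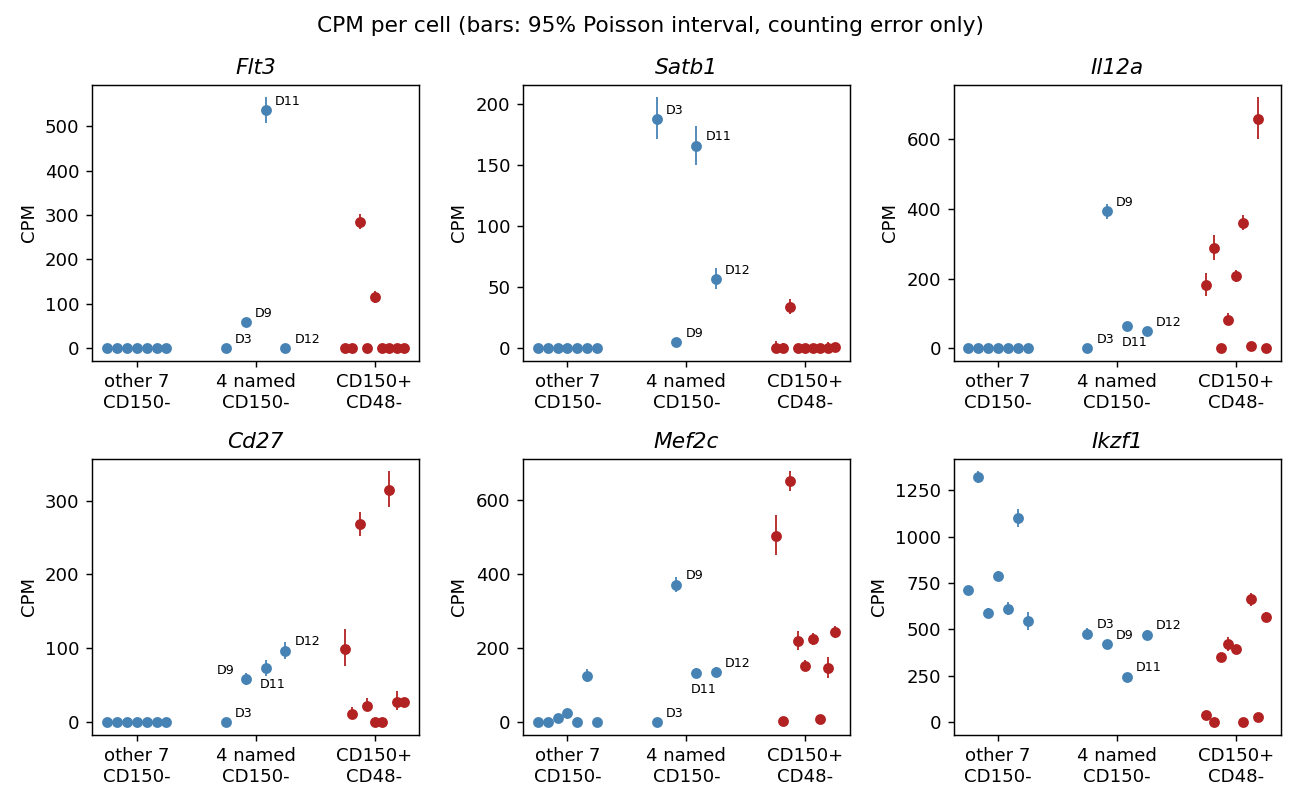
CPM per cell (linear vertical axes) of Flt3, Satb1, Il12a, Cd27, Mef2c and Ikzf1, 1 panel each, with the other 7 CD150- cells, the CD150- cells D3, D9, D11 and D12 (labelled) and the 9 CD150+CD48- cells from left to right. Bars are 95% Poisson intervals of counting error. The 7 cells on the left are at 0 for Flt3, Satb1, Il12a and Cd27 and between 544 and 1322 CPM for Ikzf1.

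Mef2c encodes a MADS-box transcription factor of lymphoid, muscle and other cells, at 13:83504034-83667080 on the plus strand. Its level in CD150+CD48- cells ran from 3.55 CPM in A11 to 653 CPM in A3, with a median of 219 CPM. D9 had 371 CPM, D12 135 CPM and D11 132 CPM. The intervals of D12, D11, B11, B4 and the CD150- cell D5 (125 CPM) overlapped. C9 had 24.8 CPM and C6 10.3 CPM, and D3, C10, C12, D4 and D8 had none. D3 thus differed from D9, D11 and D12 in this gene as it did in Il12a and Cd27. The group level was 244 CPM against 68.2 CPM, 3.58-fold higher in CD150+CD48- cells (95% CI 3.23 to 3.98). The log2 fold was 1.83, with 1.44 without A3 and 2.58 without D9. It was 0.59 in cells of letters B and D and 5.38 in cells of letters A and C. All 10 cells with Il12a reads and all 11 with Cd27 reads also had Mef2c reads.

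Ikzf1 encodes Ikaros, a zinc finger factor needed for the lymphoid line, at 11:11685003-11772926 on the plus strand. It held most member reads in the other 7 CD150- cells, where it ran from 544 CPM in D8 to 1322 CPM in C12 with a median of 712 CPM. D3 had 478 CPM, D12 471, D9 419 and D11 245, each below the lowest of those 7. The interval of D3 (451 to 505 CPM) overlapped that of D8 (499 to 592 CPM). In CD150+CD48- cells the level ran from 0 (A11 and B12) to 662 CPM (B3), with a median of 353 CPM, and A10 (39.4 CPM) and B4 (24.7 CPM) were low. The group level was 271 CPM against 660 CPM, 2.43-fold lower in CD150+CD48- cells (95% CI 2.30 to 2.58). Of the 4 CD150+CD48- cells at under 40 CPM, A10, A11 and B4 were those with more than 40% unaligned reads. Without them the log2 fold was -0.74 in place of -1.28.

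Tcf3 encodes the E proteins E12 and E47, basic helix-loop-helix factors of lymphoid specification, at 10:80409514-80433647 on the minus strand. CD150- cells had 20.6 CPM (D9) to 196 CPM (C6), with a median of 116 CPM. D12 had 140 CPM, D11 90.6 CPM and D3 81.3 CPM, within the 65.9 to 196 CPM of the other 7 cells, and D9 was below them. CD150+CD48- cells had a median of 26.1 CPM, no read in B4 and B12, and 180 CPM in B9. Tcf3 was 2.78-fold lower in the CD150+CD48- group (95% CI 2.41 to 3.22), at 41.6 against 116 CPM. The log2 fold of -1.45 was -2.08 without B9.

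Notch1, the receptor through which Notch ligands direct progenitors to the T cell line, lies at 2:26457903-26516663 on the minus strand. It was read at more than trace level in 2 cells, D9 (65.3 CPM, 219 reads) and B9 (45.1 CPM, 168 reads). C9, D5 and D12 had 1 read each. The group levels, 4.04 against 6.61 CPM, differed by less than counting error (ratio 0.611, 95% CI 0.358 to 1.02). Each level rested on 1 cell: the log2 fold was 2.13 without D9 and -2.93 without B9. It also turned from -0.59 to 0.82 when scaled to ERCC reads. Of the exon bases, 10.4% are shared with 0610009E02Rik and Gm13568 on the opposite strand. The labels do not say whether counting used strand, so reads there cannot be assigned with certainty.

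Dntt encodes terminal deoxynucleotidyl transferase, which adds bases at the joints of antigen receptor genes, at 19:41029275-41059525 on the plus strand. D11 had 6 reads (2.33 CPM, 95% CI 0.856 to 5.08), and no other cell had any. It did not pass the filter, and no fold is given because both groups were under 3 thinned reads. A share of 0 of 9 CD150+CD48- cells allows up to 33.6% (exact Clopper-Pearson).

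To set genes beside each other, group CPM was divided by the kb of annotated exon. Whether reads scaled with exon length in these cells was not tested. In CD150+CD48- cells Il12a was highest, at 117 CPM per kb, followed by Ikzf1 (47.0), Cd27 (37.2), Mef2c (15.5), Tcf3 (10.3), Flt3 (7.14), Notch1 (0.284) and Satb1 (0.177). In CD150- cells the order was Ikzf1 (114 CPM per kb), Tcf3 (28.6), Il12a (26.6), Cd27 (8.99), Flt3 (8.65), Mef2c (4.34), Satb1 (1.93), Notch1 (0.465) and Dntt (0.0601). The CD150- values pool cells with and without reads, since Flt3 was at 0 in 7 of 11 cells. Il12a and Cd27 were at 0 in the same 7 cells and also in D3. Without D9 Il12a was at 6.32 CPM per kb, and without D11 Flt3 was at 1.05, so their places rest on those cells. Notch1 was at 0.0106 without D9. In CD150+CD48- cells Flt3 fell to 2.39 and Satb1 to 0.00995 without A3, and Tcf3 to 6.56 and Notch1 to 0 without B9. Il12a stayed highest there with each cell left out, at 83.3 CPM per kb or more. The exon lengths join all annotated transcripts, so a gene with long alternative exons, such as Satb1 or Mef2c, is understated.

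D11 had reads of 8 of the 9 genes, all except Notch1, and was the highest of the 20 cells for Flt3 and the only cell with Dntt. Of all genes past the filter, D11 was the highest cell for 5.98%. Its Ikzf1 level was the lowest among CD150- cells. Lck, a kinase of T cell receptor signalling, had 201 CPM in D11, its highest cell. Of the other T cell markers Lat had 23.7 CPM, Gata3 6.61 CPM and Cd3e 1 read there. The rest of the 14 T cell markers had no read in D11. Lat was highest in A8 (305 CPM), and Gata3 was read in 19 cells and highest in B12 (258 CPM).

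D9 also had reads of 8 genes, all except Dntt, and was the highest cell for Notch1 (5.9% of all genes peaked in D9). It led the CD150- cells in Il12a and Mef2c and had the lowest Tcf3 of the CD150- cells. Rbpj, the DNA-binding partner of Notch receptors, had 881 CPM in D9, against 385 CPM in D12, the next highest cell. At equal depth Rbpj was read in 7 of 9 CD150+CD48- and 8 of 11 CD150- cells. Notch2, another receptor of the family, was read in 8 of 9 and 10 of 11. Its level was 2.68 CPM in D9, and it was highest in D11, at 274 CPM.

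D12 had reads of 8 genes, all except Dntt, with 2 reads of Flt3 and 1 of Notch1. It was the highest cell for none of the 9, where the share over all genes was 6.28%. Il2rg, the common receptor chain shared with the interleukin-7 receptor, peaked in D12 at 1007 CPM and was next highest in A11 at 867 CPM. Lmo2, a stem and progenitor cofactor, also peaked there (7539 CPM), and D12 was the only CD150- cell with Irf8, a factor of B cell and dendritic lines (111 CPM).

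D3 had reads of 4 genes, Satb1, Ikzf1, Tcf3 and 1 read of Flt3, and none of Il12a, Cd27 or Mef2c, which D9, D11 and D12 all had. It was the highest cell for Satb1, against 6.97% of all genes. Spi1, which encodes the myeloid and lymphoid factor PU.1, had 687 CPM in D3, against 187 CPM in A3, the next highest, and none in D9 or the other 7 CD150- cells. Bcl11a, a factor needed for B cell development, also peaked in D3 (1217 CPM), with reads in all 20 cells.

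At equal depth, reads of 8 members were found in D9 and D11, 7 in D12, 3 in D3, 2 or 3 in each of the other 7 CD150- cells and 3 to 7 in the CD150+CD48- cells. Genes read in all numbered 6034 in D9, 6303 in D11, 8841 in D12, 5457 in D3 and 5465 to 8887 in the other 7. B9, with 7 members, had 8360 genes. Gene reads per ERCC read, a measure of mRNA content, were 12.7 in D3, 24.3 in D11, 36.1 in D9 and 43.8 in D12, against 109 to 302 in the other 7 CD150- cells and 22.3 to 109 in CD150+CD48- cells. The part of mRNA content in the result was not tested. D4, D5 and D8, which share the letter D with the 4 cells, had 2 or 3 members at equal depth, as had the cells of letter C.

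**Figure D3:**
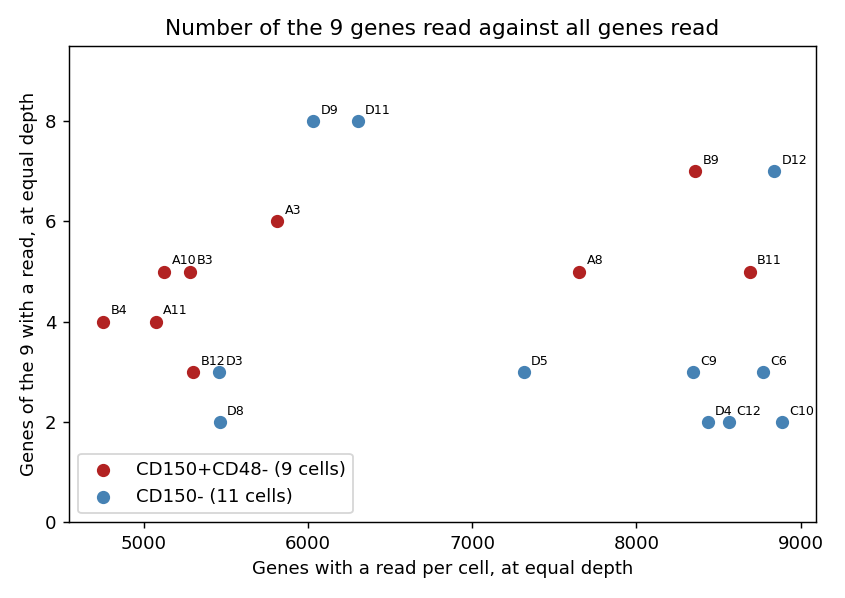
Number of the 9 genes with a read (vertical axis) against the number of all genes with a read (horizontal axis, starting above 0), at 660007 gene reads per cell, for each of the 9 CD150+CD48- cells (red) and 11 CD150- cells (blue). D9 and D11 are at 8 members with 6034 and 6303 genes, and C10 and B9, with more genes, are at 2 and 7 members.

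Over the 9 genes together, the summed level was 894 CPM in CD150+CD48- cells and 1007 CPM in CD150- cells (ratio 0.888, 95% CI 0.857 to 0.920). In CD150- cells Ikzf1 and Tcf3, at 660 and 116 CPM, made up most of the sum, and in CD150+CD48- cells, at 271 and 41.6 CPM, they did not. Without them, a split made after the values were seen, the other 7 genes summed to 581 against 231 CPM, a log2 fold of 1.33 in place of -0.17. By cell, the sum of these 7 genes was 973 CPM in D11, 950 in D9, 338 in D12 and 188 in D3, 0 to 126 in the other 7 CD150- cells and 302 to 1239 in CD150+CD48- cells. D9, D11 and D12 were thus within the CD150+CD48- range, D3 was below it and above the other 7.

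Of the 8 members past the filter, 3 (Il12a, Cd27 and Mef2c) were higher in CD150+CD48- cells, where 47% of all genes were higher. Il12a was at least 4-fold higher on the log2 scale with a pseudocount of 1 CPM, beside 9.87% of all genes, and Satb1 at least 4-fold lower, beside 13.3%. The members' median log2 fold was -0.43 and that of all genes -0.10, and the members' median turned to 0.52 with ERCC scaling and to 0.17 with log2 values averaged over cells. The mean share of cells with a read of a member, over all 9, was 54.3% of CD150+CD48- cells and 43.4% of CD150- cells at equal depth, a difference of 10.9 percentage points, where all genes past the filter had -10.6 points.

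Other genes of these pathways were read from 10 lists of 147 matched genes, of which 105 passed the filter and 16 had no read in any cell. Among the 105, 11 were at least 4-fold higher in CD150+CD48- cells, beside 9.87% of all genes, and 12 at least 4-fold lower, beside 13.3%. These shares of all genes are also the background for the 4-fold counts of single lists below. The median log2 fold of the 105 was 0.20. No read in the other 7 CD150- cells was found for 15 of them, or 14.3%, beside 7.19% of all genes past the filter, and these too passed it through reads in other cells. Cd34 (a progenitor surface protein), Erg and Spi1 were among these 15. Cd34 had 1493 CPM in D11, 968 in D9, 218 in D3 and 50.7 in D12, and 1888 CPM in B3, the highest cell.

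Later lymphoid steps were represented by 3 genes at 0. Il7r, Rag1 and Rag2, which encode the interleukin-7 receptor and the recombinase, had no read in any of the 20 cells. Of 11 genes past the filter in the interleukin-7 receptor and recombination list, none was at least 4-fold higher and 4 were at least 4-fold lower, with a median log2 fold of 0.18. Prkdc, the DNA repair kinase used in joining, peaked in D9 (1334 CPM) and had a log2 fold of -2.92, with -4.73 without A3 and -1.92 without D9.

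The interleukin-12 list had a median log2 fold of 1.55 over 7 genes, with 2 at least 4-fold higher and none 4-fold lower. Stat4, which transmits interleukin-12 signals, had reads in 6 CD150+CD48- cells, D9, D11 and D12, and 1 read in D3. It had no read in the other 7 CD150- cells. Its log2 fold of 2.03 was 1.62, under 4-fold, without B12 and 2.63 without D9. Ebi3, whose product can pair with that of Il12a, had 138 CPM in D12 and 63.8 CPM in D11, with a maximum of 433 CPM in A11, and its log2 fold of 1.55 was -0.48 without A11 and 3.06 without D12. Il12rb2, a receptor chain, had a log2 fold of 4.26 that fell to 1.43 without B4, where it had 659 CPM. The lowest of the list were the kinases of the receptor, Tyk2 at -1.92 (-4.14 without A8 and -1.06 without D9) and Jak2 at -0.63.

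Of 13 FLT3 signalling genes past the filter, 3 were at least 4-fold higher and none lower (median 0.46, and -0.53 with log2 values averaged over cells). Pik3r1, the regulatory subunit of PI3 kinase, had a log2 fold of 3.27, with 2.38 without B3 and 3.94 without C6. Socs2, an inhibitor of cytokine signals, was at 3.73, or 3.09 without B9. Of 18 Notch pathway genes 3 were higher and 2 lower by that measure (median 0.31, and -0.78 with ERCC scaling). Maml2, a Notch coactivator, had no read in CD150- cells at equal depth and was at least 304-fold higher, against a floor of 3 reads over the group, while Maml3 was lower by 23.7-fold (95% CI 13.7 to 45.0). D11 held most Maml3 reads, and the log2 fold of -4.05 was -2.04 without it and -5.26 without A8.

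The CD27 list had a median log2 fold of 0.98 over 6 genes, with 1 at least 4-fold higher, Traf1, an adaptor of TNF receptors, which had 675 CPM in B12, and Cd70, the ligand of CD27, had no read. Among 16 genes of the Ikaros family and the NuRD complex, to which Ikaros binds, none was 4-fold higher and 3 were lower (median 0.01, and -1.35 with ERCC scaling). Ikzf3 had no read in any cell, and Ikzf2 was at 70.2 and 70.1 CPM, each resting largely on 1 cell, and its log2 fold of 0.0019 was -1.15 without B11 and 0.96 without D9. Gatad2b, a NuRD subunit, had a log2 fold of -4.19 that was -1.38 without D9 and -4.95 without A3. The MEF2 list had a median of 0.01 over 5 genes (-0.69 with log2 values averaged over cells), with 1 gene 4-fold lower, Hdac4, at -5.11, or -3.22 without D8.

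E protein partners and Id factors had a median of -0.23 over 9 genes, with none past 4-fold (0.13 with ERCC scaling). Tcf12 (-1.12) and Tcf4 (0.71), the other E protein genes, had opposite signs. Without A3 Tcf12 was at -2.63, and without B4 Tcf4 was at 0.029. Id2, an E protein inhibitor, had 15.6 CPM in D12 and up to 7.68 CPM in 2 CD150+CD48- cells. Lymphoid priming factors had a median of 0.97 over 11 genes, with Erg and Ets1 at least 4-fold higher and none lower. Erg was at 2.08, with 3.22 without D3 and 1.72, under 4-fold, without B12. Ets1 was at 3.26, and 2.38 without A3. Surface genes of multipotent and lymphoid progenitors had a median of -0.53 over 9 genes. Of these, 2 were at least 4-fold lower, Cd53 (-4.36, and -3.44 without D3) and Il1r1 (-2.61, with -1.08 without D12 and -3.63 without A8).

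**Figure D4:**
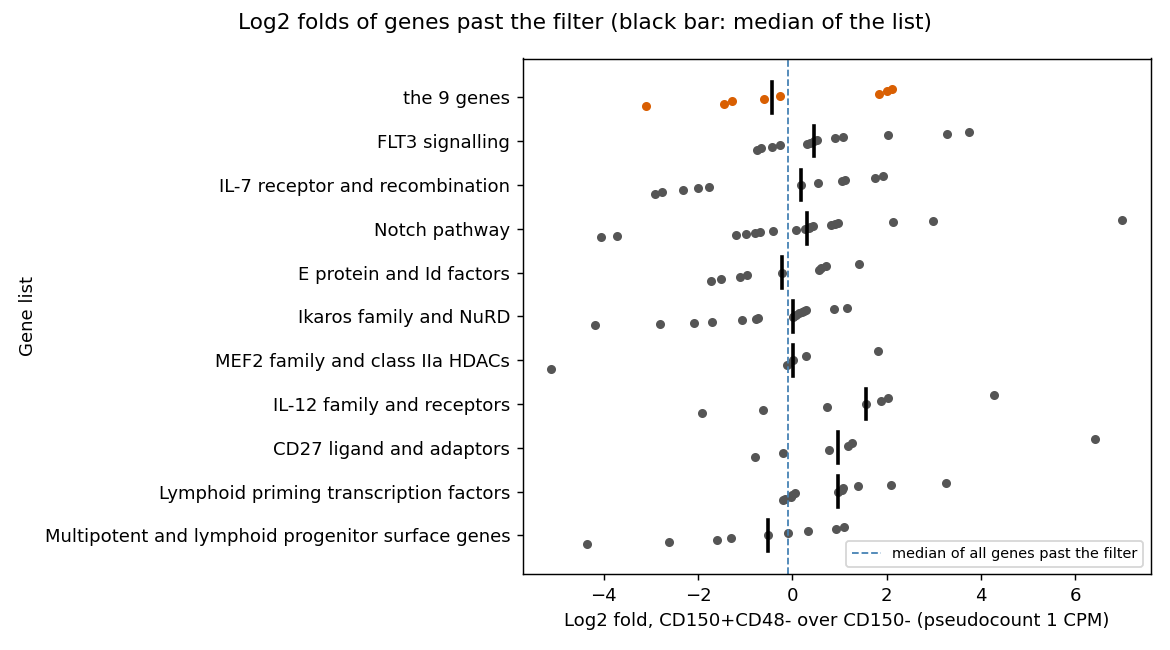
Log2 fold of CD150+CD48- over CD150- group levels (horizontal axis, pseudocount 1 CPM) for genes past the filter in each list (rows), 1 point a gene, with the list's median as a black bar and the median of all genes as a dashed line. The 9 genes, of which 8 are shown, run from -3.11 (Satb1) to 2.12 (Il12a), with a median of -0.43.

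Marker lists of other cell types were read beside these genes. Of 14 erythroid markers, 13 passed the filter and 11 were at least 4-fold lower in CD150+CD48- cells. They took 0.864% to 2.20% of gene reads in the other 7 CD150- cells, 0.249% in D3, 0.0946% in D11, 0.0612% in D9, 0.0157% in D12 and 0.0226% to 0.304% in CD150+CD48- cells. Klf1, an erythroid factor, had 436 to 615 CPM in those 7 cells. G2/M genes, 13 of 15 at least 4-fold lower, took 0.311% to 0.624% in those 7, 0.000117% to 0.0249% in D3, D9, D11 and D12 and 0 to 0.151% in CD150+CD48- cells. Erythroid and G2/M reads were thus highest in the 7 CD150- cells without reads of Flt3, Satb1, Il12a and Cd27. Earlier results on other genes of these data had set D3, D9, D11 and D12 apart from these 7 cells. The marker contrast is therefore a description, and its part in the absence was not tested.

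Stem cell markers, 8 of 15 at least 4-fold higher in CD150+CD48- cells, took 0.0135% to 0.0519% in the other 7 CD150- cells, 0.595% in D3, 0.343% in D9, 0.328% in D11, 0.312% in D12 and 0.218% to 0.711% in CD150+CD48- cells. Of 14 B cell markers 2 passed the filter and 7 had no read in any cell, and they took 0.000355% to 0.0647% in CD150+CD48- cells and 0.000644% to 0.0215% in CD150- cells. T cell markers had 3 of 14 past the filter and 5 at 0, Cd4 among them, and took 0.00225% to 0.0311% in CD150+CD48- cells and 0 to 0.0232% in CD150- cells, with D11 the highest of the latter. Of 10 natural killer and innate lymphoid markers 8 had no read, and Klrb1c was read in A11 alone. Dendritic markers had 2 of 10 past the filter and took 0 to 0.0405% in CD150+CD48- cells and 0 to 0.0401% in CD150- cells. Neutrophil and monocyte markers had 3 of 13 past it and 1 at least 4-fold higher, and took 0.0106% to 0.126% in CD150+CD48- cells, 0.0166% to 0.0641% in D3, D9, D11 and D12 and 0 to 0.00529% in the other 7. Megakaryocyte markers, 7 of 10 at least 4-fold higher and 1 lower, took 0.0148% to 0.256% in CD150+CD48- cells and 0.00276% to 0.0500% in CD150- cells.

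Pairs of members were compared over the 20 cells by log2(CPM + 1), as a description without a test, since cells share a gate and differ in depth. Flt3 and Satb1 were read together in 6 cells (Pearson r 0.54, Spearman rho 0.77). Il12a and Cd27 were read together in 9 cells (r 0.41, rho 0.46), and Il12a ran against Ikzf1 (r -0.66, rho -0.78) and Tcf3 (r -0.67, rho -0.73). Ikzf1 and Tcf3 went together (r 0.61, rho 0.58).

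The genes nearest to each member in pattern were sought among 8916 genes over the same 20 cells. For Flt3 they were Zdhhc8 (r 0.95, rho 0.89), B3gntl1 (r 0.89) and Ccdc88b (r 0.88). For Satb1 they were Rasa4 (r 0.87, rho 0.81), Pam (r 0.86) and Emcn (r 0.86). Il12a was nearest to Casp4 (r 0.81, rho 0.62), Atp2a3 (r 0.80) and Pisd-ps1 (r 0.80), and Cd27 to Adgrl4 (r 0.80, rho 0.86), Ctla2a (r 0.78) and Ptpn18 (r 0.76). These values belong to genes read in 6 to 17 of the cells, so that shared zeros weigh on them. Mef2c was nearest to Itih5 (r 0.83, rho 0.82), Calcrl (r 0.81) and Tfpi (r 0.79), and Ikzf1 to Set (r 0.88, rho 0.66), Psmd8 (r 0.87) and Larp1 (r 0.85). Tcf3 was nearest to Psmb6 (r 0.83, rho 0.36), Nup210 (r 0.82) and Prdx6 (r 0.80), and the summed level of the 9 genes to Atp9b (r 0.71, rho 0.67), Alkbh1 (r 0.69) and Brwd1 (r 0.68).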

How the data were processed

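Single bone marrow cells were sequenced with Quartz-Seq after lysis in a buffer with diluted ERCC spike-ins, per the labels' protocols. The authors deposited raw counts of reads for each Ensembl gene and cell. HTSeq, R 3.0.2 and the build GRCm38 are named in the submitters' processing notes. The sources used here do not give the aligner, annotation release or strand setting. Multiply aligned reads were outside the gene counts, so genes with close copies are undercounted. The 5 summary rows and 51 ERCC rows stayed out of library sizes.

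All cells were thinned, without replacement and with seed 14, to 660007 gene reads, and thinned reads were summed by gate and given as CPM, where 1 read of a cell is worth 1.52 CPM. Log2 folds set CD150+CD48- over CD150- after adding 1 CPM, so those of low genes are understated. Levels carry exact Poisson, folds exact conditional binomial and shares Clopper-Pearson intervals. With 1 sample per gate there were no tests. The 9 genes, the lists and the settings were chosen with earlier results of these data known. The rule for named genes took all members, up to 2 list genes with the highest and 2 with the lowest fold, ligands, receptors and family members of the 9, up to 4 list genes peaking in each of D3, D9, D11 and D12, and the 3 nearest genes by Pearson r. Slamf1, Kit, Cd48, Klf1, Cd34, Spi1, Stat4, Ebi3, Id2 and Irf8 were named as gate, list or marker genes after their values were seen. So were the markers Lck, Lat, Gata3, Cd3e and Klrb1c and the markers at 0. Of 275 listed symbols 274 matched, and Flt3l did not. Symbols matched 36639 identifiers. Coordinates and exon lengths are from GENCODE M21 on GRCm38 and promoters from RefSeq. Python 3.11.15, numpy 2.4.6, pandas 2.3.3 and scipy 1.17.1 were used, with edgeR 4.0.16 (TMM) and DESeq2 1.42.0 for scaling alternatives in R 4.3.3. Steps were tested on simulated data. Alternatives were scalings, thinning draws, pseudocounts, filters, letters and each cell left out.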

Additional observations from a re-analysis of the deposited data

Results flagged for a closer look

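In the 9 CD150+CD48- cells 2 values stood far above the rest by Dixon's criterion for the gap to the nearest cell, on the log2(CPM + 1) scale. Satb1 in A3 was at 5.12, with a gap of 0.833 of the group's range. Notch1 in B9 was at 5.53, with a gap of 1.00 because no other CD150+CD48- cell had a read. The criterion was run on 10 sets of values, and its chance rate of about 1 in 20 is for normally distributed values. Most of the cells compared had no read of these genes, so that rate does not apply to them. The group of 11 CD150- cells was over the size for which it was run.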

How the results depend on the processing

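The summed level of the 9 genes had a log2 fold of -0.17, which was -0.27 with TMM, -1.31 with ERCC scaling, -0.11 in cells of letters A and C, -0.34 (without A3) to -0.068 (without A11) with 1 cell left out, -0.016 without A10, A11 and B4, and 1.33 without Ikzf1 and Tcf3. The last 2 alternatives were added after seeing the data. Members higher in CD150+CD48- cells numbered 3, 5 with ERCC scaling or for letters A and C only, and 4 with the mean of log2 values, without D11, without D9, or without A10, A11 and B4. The difference in mean share of cells was 27.8 points in cells of letters A and C, against 10.9. Flt3 turned from -0.27 to 0.22 (ERCC), 0.44 (mean of log2 values), 6.14 (letters A and C), 0.30 (without A10, A11 and B4) and 2.59 (without D11), with -1.79 to 2.59 over cells left out. Satb1 turned from -3.11 to 3.04 in cells of letters A and C. In cells of letters B and D Satb1 was at -5.50, Flt3 at -1.79, Mef2c at 0.59 against 1.83, and the share difference was 0.952 points. The letters A and C leave out D3, D9, D11 and D12 by construction, and for the other settings the cause was not tested. ERCC scaling moved the median of all genes by -0.84 and averaging log2 values by -0.40. Il12a, Cd27, Mef2c, Ikzf1 and Tcf3 kept their direction under every alternative run. No paired analysis was possible because each sample is a different cell and the groups share no replicate number. Depth limits what a count of 0 can show, and the floor was set at 3 reads a cell. With 1 sample per gate nothing here measures the spread between animals.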

Other observations

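B3, sorted as CD150+CD48-, was the cell with the highest Cd27 (315 CPM) and the highest Cd34 (1888 CPM) of the 20 and the one cell with reads of Cd48 (230 CPM), and it had no read of Slamf1. Cd79b, a B cell receptor subunit, had 626 CPM in B3, and Csf3r, the receptor for granulocyte colony-stimulating factor, 271 CPM, each the highest of the 20 cells. Among the 9 genes B3 was high in Cd27 and Ikzf1 (662 CPM), low in Il12a (7.98 CPM) and Mef2c (7.51 CPM), with no read of Flt3. These genes were picked after their values were seen, and no comparison was made.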
